A study of Homo sapiens with 14 samples.

Results

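KLF4 peaks were examined at 9 genes of the cell cycle and the p53 pathway, out of 20033 protein-coding genes of the GENCODE 44 annotation. They are the CDK inhibitors CDKN1A, CDKN1B, CDKN1C, CDKN2A and CDKN2B, the G1 cyclins CCND1 and CCNE1, and the p53 pathway genes MDM2 and GADD45A. The genes were taken by name, with earlier results of these data known, and a peak belonged to a gene if its summit lay between 10 kb upstream of the gene's most upstream annotated start and 2 kb past its end. All 9 genes were found in the annotation.

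The libraries come from BEAS-2B, an established human bronchial epithelial line that was immortalised with an adenovirus 12-SV40 hybrid virus. The SV40 T antigen is known to bind p53 and RB, and all groups share it. WT and Nrf2 KO cells were compared, either untreated (control) or given 1 µM As3+ for 6 h, so that the groups are WT control, WT As3+, Nrf2 KO control and Nrf2 KO As3+. The KO cells carry a CRISPR-Cas9 edit of NFE2L2, from transfection with sgRNAs to exon 2, and transfected colonies that kept Nrf2 protein served as WT. Each condition has 1 KLF4 library without a replicate, and p-values across genes or peaks are therefore not given. Peak lists hold no expression values, so neither the knockout nor the identity of the cells could be checked in them.

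KLF4 is a zinc finger transcription factor that binds GC-rich CACCC-type sequences and is known in epithelia for holding cells in G1, in part through CDKN1A. The CIP/KIP inhibitors (p21, p27 and p57) bind cyclin-CDK complexes, while the INK4 inhibitors (p16 and p15) bind CDK4 and CDK6 and keep cyclin D1 from activating them. Active cyclin D and cyclin E kinases phosphorylate RB and release E2F, and p53 acts on the same step by inducing CDKN1A, while MDM2 marks p53 for degradation.

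The lists differ greatly in length. There were 751 peaks in the WT control list, 29870 in WT As3+, 76545 in Nrf2 KO control and 130 in Nrf2 KO As3+. The total reads of the libraries are not known here, and the depth behind a peak was taken from the fragments over its summit, which the listed fold and p fix together. The median was 25 fragments in WT control, 10 in WT As3+, 7 in Nrf2 KO control and 19 in Nrf2 KO As3+. The lowest local background was 1.90, 0.757, 0.491 and 1.64 fragments in the same order. Fold here is the authors' ratio of summit signal to local background, and it was used to describe peaks within a list, not to compare libraries.

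All 9 genes had a KLF4 peak in the WT As3+ list and all 9 in the Nrf2 KO control list, and none had a peak in the WT control or the Nrf2 KO As3+ list. Across all protein-coding genes the share with a peak in the same window was 66.5% in WT As3+, 81.0% in Nrf2 KO control, 2.51% in WT control and 0.439% in Nrf2 KO As3+. The pattern of a peak in WT As3+ and Nrf2 KO control but in neither other list was shared by 61.3% of protein-coding genes, so that most genes show what these 9 show. When peaks had to reach a −log10 q of 5, 7 of the 9 genes retained one in WT As3+ (38.2% of protein-coding genes) and 7 in Nrf2 KO control (51.0%). CCND1 and CCNE1 were the genes without such a peak in WT As3+, and CDKN2A and CDKN2B were those without one in Nrf2 KO control. A summit within 1 kb of an annotated start of the gene itself was found for 8 of 9 genes in WT As3+ (54.4% of protein-coding genes), all except CCND1, and for 9 of 9 in Nrf2 KO control (69.0%).

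In numbers of peaks, the 9 windows held 19 in WT As3+ and 32 in Nrf2 KO control, and the median per gene was 2 and 3, against 1 and 2 over all protein-coding genes. CCND1 accounts for most of the gap between the lists. Without it the other 8 genes held 18 peaks in WT As3+ and 20 in Nrf2 KO control. Peaks were more numerous in Nrf2 KO control at 4 genes (CDKN1A, CDKN1B, CCND1 and CCNE1), equal at MDM2 and GADD45A, and more numerous in WT As3+ at CDKN1C, CDKN2A and CDKN2B. Among all protein-coding genes 12331 had more peaks in Nrf2 KO control and 1633 had more in WT As3+. When the Nrf2 KO control list was shortened to its strongest 29870 peaks by −log10 p, a comparison chosen after seeing the data, the 9 windows held 16 of its peaks, 11 of them outside CCND1 against the 18 of WT As3+, and CDKN2B had none. In that shortened list CDKN1A (3 peaks), CCND1 (5) and CCNE1 (2) still exceeded WT As3+, and GADD45A was equal. CDKN1B and MDM2, with 1 peak each against 2, joined CDKN1C, CDKN2A and CDKN2B in having more peaks in WT As3+. A peak of the shortened list was found at 8 of the 9 genes, against 65.3% of protein-coding genes. How many protein-coding genes have more peaks in WT As3+ at this list length was not computed, so the order is not a trait of these 9 genes.

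**Figure D1:**
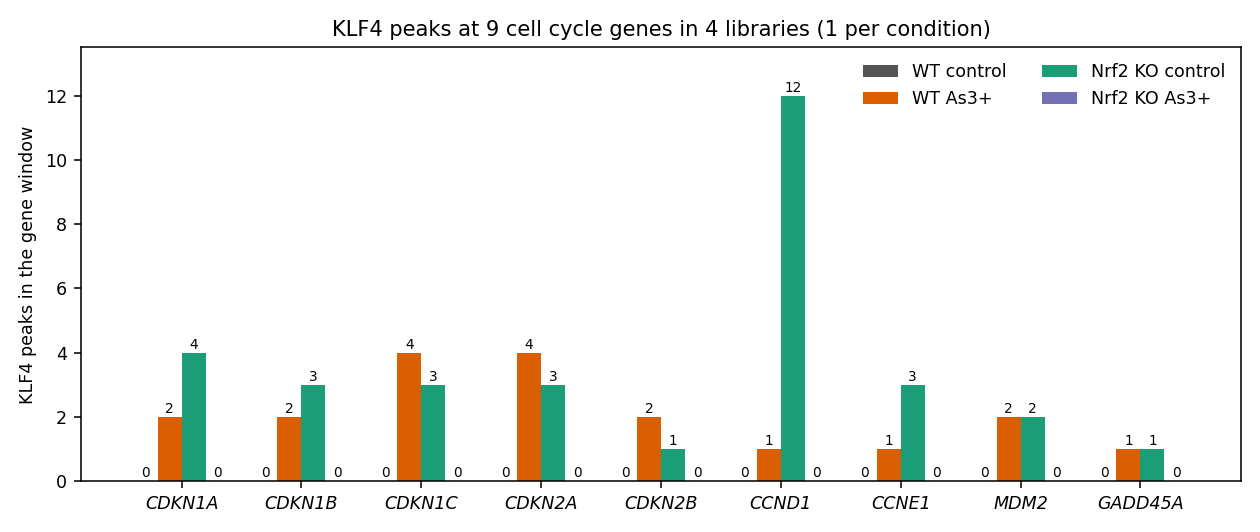
Number of KLF4 peaks in the window of each gene (y axis) in the 4 libraries, 1 per condition; numbers above the bars give the counts. WT control and Nrf2 KO As3+ stand at 0 for every gene, and CCND1 has 12 peaks in Nrf2 KO control against 1 in WT As3+.

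CDKN1A encodes p21, the inhibitor through which p53 and KLF4 are best known to arrest cells in G1. It lies on the plus strand at chr6:36676460-36687337 (hg38), and it had 0 peaks in WT control, 2 in WT As3+, 4 in Nrf2 KO control and 0 in Nrf2 KO As3+. The strongest WT As3+ peak at any of the 9 genes was its promoter peak at chr6:36678475-36679394, with a fold of 6.94, −log10 q of 14.3 and 30 fragments, rank 1001 of 29870 by −log10 p. Its summit lay 85 bp upstream of the canonical start and 70 bp from the start of DINOL, a noncoding RNA. The Nrf2 KO control list had an overlapping peak at chr6:36678407-36679143, with 669 bp in common, a fold of 5.93 and −log10 q of 6.72, but its summit lay 269 bp downstream of the start in intron 1.

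A further site in intron 1 was listed in both libraries. In WT As3+ its summit lay 1608 bp downstream of the start (fold 5.88, −log10 q 9.44, 23 fragments), and in Nrf2 KO control the summit lay at 1539 bp (fold 6.32, −log10 q 6.95, 14 fragments), 69 bp away. This was the strongest Nrf2 KO control peak of the gene, while in WT As3+ it came second to the promoter peak. The WT As3+ peak also covered a narrower Nrf2 KO control peak at 1886 bp, and the remaining Nrf2 KO control peak, at 3157 bp, had no counterpart. Local background at the WT As3+ promoter summit was 4.58 times the lowest of that library, the highest such ratio among the 19 peaks.

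The exact KLF word, CCACACCC or CCACGCCC on either strand, occurs 7 times in the CDKN1A window and 3 of these lie inside peaks, all 3 in peaks of both libraries. They are shown because this is the gene with most KLF words under its peaks. Each line gives 60 bases of hg38 on the plus strand, 5′ to 3′, with the KLF word in capitals (here its reverse complement). The places are chr6:36678923-36678982, which overlaps an annotated alternative 5′ exon by 17 bases, chr6:36679086-36679145 and chr6:36680218-36680277, the other two in introns.
CDKN1A at +238: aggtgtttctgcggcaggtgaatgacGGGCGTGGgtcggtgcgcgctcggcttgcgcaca
CDKN1A at +401: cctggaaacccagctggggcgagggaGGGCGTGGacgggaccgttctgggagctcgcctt
CDKN1A at +1533: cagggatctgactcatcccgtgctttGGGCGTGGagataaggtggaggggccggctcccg
The word at +1533 lies 6 bp from the Nrf2 KO control summit and 75 bp from the WT As3+ summit, and that at +238 lies 31 bp from the Nrf2 KO control summit and 323 bp from the WT As3+ summit.

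CDKN1B encodes p27, which holds cyclin E-CDK2 inactive in resting cells. The gene is on the plus strand of chromosome 12 (chr12:12685498-12722369), and its window held 0, 2, 3 and 0 peaks in WT control, WT As3+, Nrf2 KO control and Nrf2 KO As3+. Both lists placed their strongest peak in the proximal promoter. The WT As3+ summit lay 249 bp upstream of the canonical start (chr12:12716705-12717468, fold 5.81, −log10 q 6.91, 16 fragments), and the Nrf2 KO control summit lay 307 bp upstream (chr12:12716699-12717331, fold 6.32, −log10 q 6.12, 11 fragments). The peaks shared 627 bp and their summits were 58 bp apart. The other 3 peaks were weak and none was shared: a WT As3+ peak 1017 bp upstream with a fold of 4.54, and Nrf2 KO control peaks 399 bp downstream of the start in the 5′ UTR and 6548 bp downstream of it, past the gene end, with folds of 4.93 and 3.37. None of the 11 KLF words in this window lies in a peak, but the promoter peak holds a GC box (CCCCGCCCC), shown in capitals in 150 bases of the plus strand at chr12:12717044-12717193, centred on the WT As3+ summit.
CDKN1B promoter: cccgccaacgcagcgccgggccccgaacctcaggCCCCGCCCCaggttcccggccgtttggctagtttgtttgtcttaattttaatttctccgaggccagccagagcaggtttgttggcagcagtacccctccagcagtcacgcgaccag

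CDKN1C encodes p57, the CIP/KIP inhibitor that is imprinted and active in differentiating tissues. It is the shortest of the 9 genes, on the minus strand at chr11:2883213-2885775, and had 0, 4, 3 and 0 peaks in the same order of libraries. The strongest peak was not at the same place in the 2 lists. In WT As3+ the summit lay 1277 bp downstream of the canonical start in intron 2, 203 bp from another start of the gene (chr11:2884349-2884721, fold 6.17, −log10 q 5.68, 10 fragments). In Nrf2 KO control it lay 23 bp downstream of the start (chr11:2885434-2885898, fold 8.0, −log10 q 8.51, 11 fragments), rank 3443 of 76545. The remaining 3 WT As3+ peaks and 2 Nrf2 KO control peaks formed a group 4538 to 6737 bp upstream, closer to the start of SLC22A18AS, 883 to 3082 bp away, than to that of CDKN1C. The only overlap between lists was in this group and measured 20 bp. The single KLF word in a peak here lies 89 bp from a WT As3+ summit and is shown for that reason, on the minus strand at chr11:2891479-2891538.
CDKN1C at −5733: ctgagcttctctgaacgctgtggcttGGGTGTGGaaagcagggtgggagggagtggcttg

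CDKN2A gives rise to p16, which blocks CDK4 and CDK6, and from an upstream first exon to ARF, which restrains MDM2. On the minus strand at chr9:21967752-21995301, it had 0, 4, 3 and 0 peaks. Apart from a weak WT As3+ peak 2669 bp upstream of the canonical (p16) start, the peaks of both lists lay either close to that start or 19316 to 20654 bp upstream of it, where the longer transcripts begin. The strongest peak of each list was in the upstream cluster, with the WT As3+ summit 206 bp from an own start of the gene and 47 bp from that of CDKN2B-AS1 (chr9:21993995-21994375, fold 6.54, −log10 q 7.31, 14 fragments). The Nrf2 KO control summit was 13 bp away (chr9:21994077-21994276, fold 5.44, −log10 q 4.55, 9 fragments). At the p16 start the summits lay 302 bp upstream in WT As3+ (fold 3.60, −log10 q 2.80) and 158 bp upstream in Nrf2 KO control (fold 3.60, −log10 q 2.07). These were weak peaks, at ranks 22180 of 29870 and 68158 of 76545.

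CDKN2B encodes p15, the INK4 inhibitor induced by TGF-β. It neighbours CDKN2A on the same strand (chr9:22002903-22009305), and the windows of both genes overlap, but no peak was counted for both. It had 0, 2, 1 and 0 peaks. The strongest WT As3+ peak was in coding exon 2, 3287 bp downstream of the canonical start and 253 bp from another start of the gene (chr9:22005879-22006184, fold 5.86, −log10 q 6.65, 15 fragments), and Nrf2 KO control had none there. At the promoter a WT As3+ peak 50 bp upstream (fold 3.85, −log10 q 2.76) lay wholly within the only Nrf2 KO control peak (chr9:22008792-22009606, fold 4.00, −log10 q 2.99, 10 fragments). The windows of CDKN2A and CDKN2B were the poorest in KLF words, with 0.506 and 0.543 per 10 kb against 2.28 over the 9 windows, and none of these words lies in a peak.

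**Figure D2:**
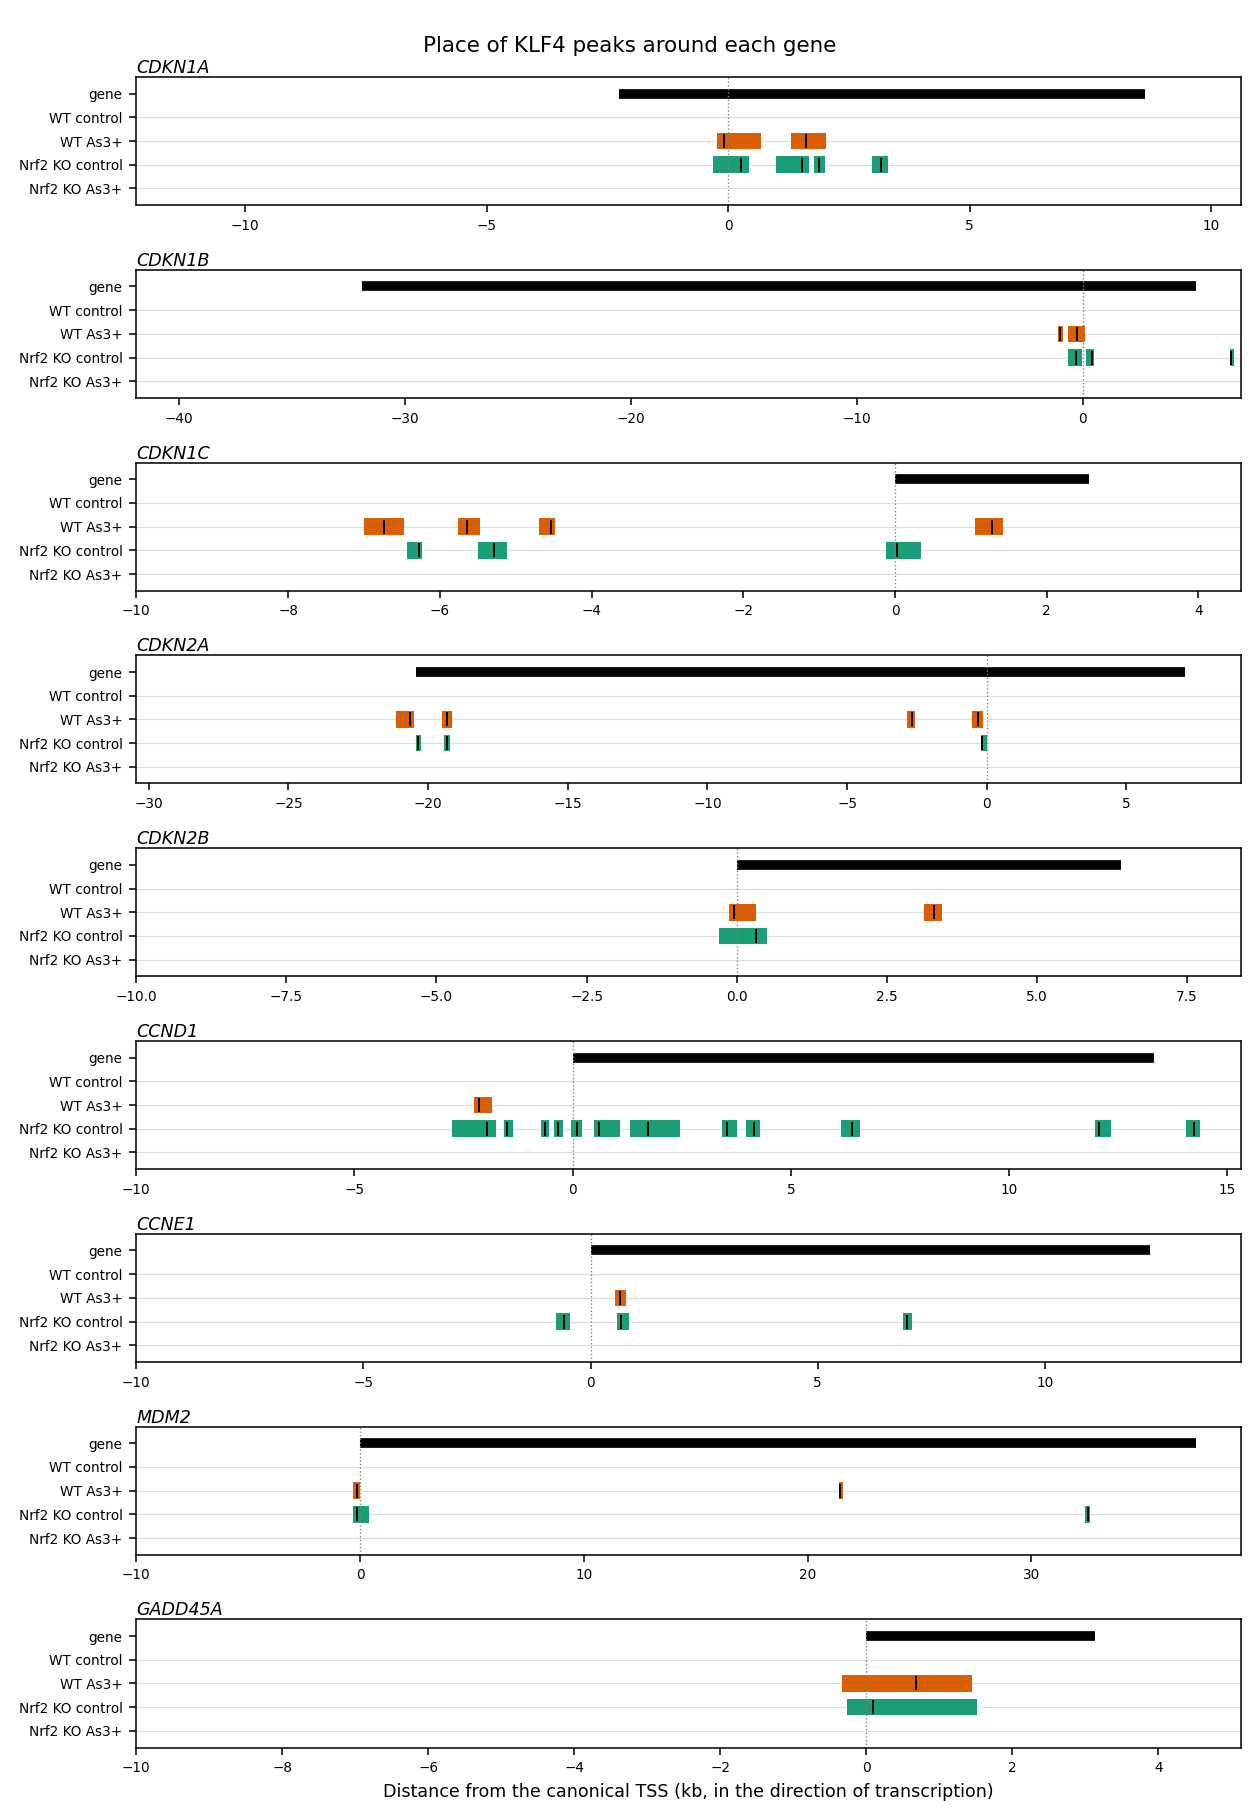
Place of every KLF4 peak in the windows of the 9 genes, as distance from the canonical TSS in kb along the direction of transcription; black bars are the annotated genes, coloured boxes the peaks of each library and short black marks their summits. Within 1 kb of an annotated start of any gene lay 12 of 19 WT As3+ peaks (63.2%) and 20 of 32 Nrf2 KO control peaks (62.5%). In the windows of all protein-coding genes the shares were 65.6% and 46.2%. The CCND1 window holds peaks of Nrf2 KO control alone except for 1 site upstream, and the rows of WT control and Nrf2 KO As3+ are empty.

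CCND1 encodes cyclin D1, the partner of CDK4 and CDK6 that growth signals induce. It is on the plus strand at chr11:69641156-69654474, with 0 peaks in WT control, 1 in WT As3+, 12 in Nrf2 KO control and 0 in Nrf2 KO As3+. The WT As3+ peak was modest, with its summit 2138 bp upstream of the start (chr11:69638901-69639319, fold 4.81, −log10 q 3.61, 9 fragments), at rank 16474 of 29870. The Nrf2 KO control list had its strongest peak of all 9 genes at the same place, 1955 bp upstream (chr11:69638399-69639399, fold 10.6, −log10 q 13.4, 15 fragments), at rank 520 of 76545. It covered the whole WT As3+ peak. Next in strength was a 1157-bp-wide peak in intron 1, 1718 bp downstream of the start (fold 9.39, −log10 q 11, 13 fragments), with no WT As3+ counterpart.

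The other 10 Nrf2 KO control peaks at CCND1 ran from 1507 bp upstream to 14245 bp downstream, past the gene end, with folds of 3.69 to 5.90 and 5 to 8 fragments each. At least as many peaks were found at 1077 of 20033 protein-coding genes (5.38%) in that list, CCND1 included. A surplus over WT As3+ at least as large as that of CCND1, 11 peaks, was found at 585 genes (2.92%), again with CCND1 counted. Among the strongest 29870 peaks of Nrf2 KO control 5 were at CCND1. With −log10 q of at least 5, 3 peaks remained in Nrf2 KO control and 0 in WT As3+.

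The surplus was not limited to the gene. In the 1 Mb centred on the CCND1 start, WT As3+ had 10 peaks and Nrf2 KO control had 154, whereas the medians over protein-coding genes were 15 and 36. Of 3227 protein-coding genes within 2 peaks of CCND1's WT As3+ count, 4 (0.124%) had at least as many Nrf2 KO control peaks around them. The median of the 3227 was 21. CCND1 itself is counted among the 3227 and the 4, and its neighbours, whose 1 Mb overlaps the same peaks, were not left out. In the next 4 bins of 1 Mb downstream the counts were 5 and 82, 4 and 55, 6 and 88, and 11 and 103 for WT As3+ and Nrf2 KO control. The bin 1 Mb upstream held 15 and 112. From 2 to 5 Mb upstream both lists were richer in peaks, with 40 to 85 per bin in WT As3+ and 142 to 232 in Nrf2 KO control. Around the other members the surplus was smaller, for instance 43 against 88 peaks around CDKN1A and 13 against 14 around MDM2. The local background at the 12 CCND1 summits was 1.00 to 1.53 times the lowest of the Nrf2 KO control library. This region was looked at after the CCND1 counts had been seen, the DNA content of the clones was not measured here, and the cause was not tested.

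**Figure D3:**
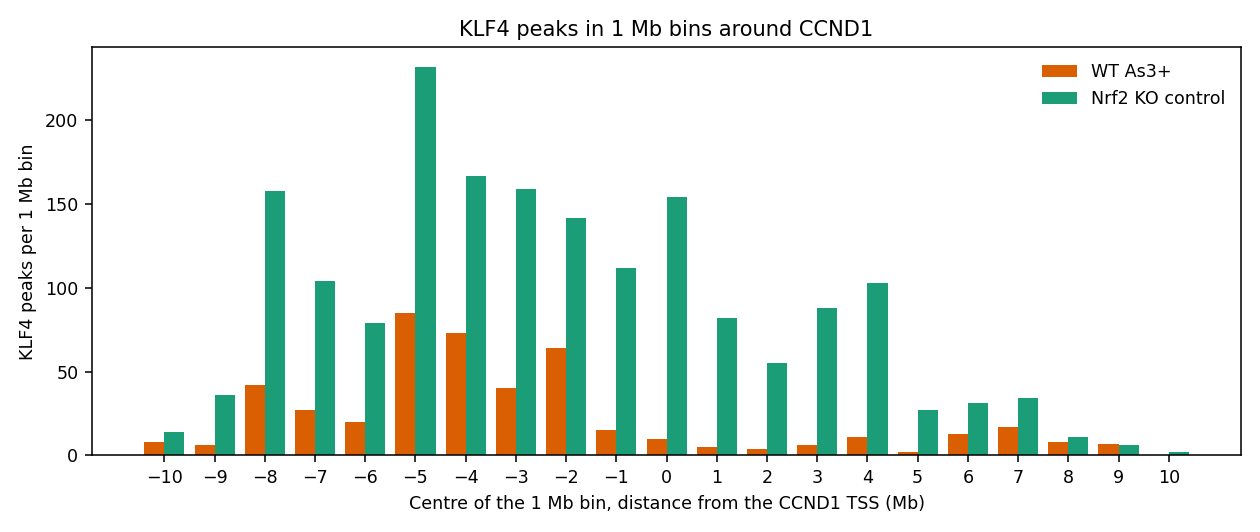
Number of KLF4 peaks in 1 Mb bins (y axis) by the distance of the bin centre from the CCND1 TSS in Mb (x axis), in WT As3+ and Nrf2 KO control. The bin of CCND1 holds 10 and 154 peaks, and the 4 bins downstream hold 4 to 11 in WT As3+ and 55 to 103 in Nrf2 KO control.

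The KLF word occurs 6 times in the CCND1 window and 2 of these lie in Nrf2 KO control peaks. The word in intron 3, at chr11:69645293-69645352 (60 bases, plus strand), lies 2 bp from the summit of a peak of fold 5.36 and is the closest of all.
CCND1 at +4166: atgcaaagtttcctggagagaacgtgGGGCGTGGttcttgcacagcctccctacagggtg

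CCNE1 encodes cyclin E1, which activates CDK2 at the G1/S boundary. The gene is on the plus strand at chr19:29811991-29824312 and had 0, 1, 3 and 0 peaks. The WT As3+ peak was the weakest of the 9 strongest peaks, with its summit in intron 2, 645 bp downstream of the canonical start and 18 bp from another start (chr19:29812521-29812780, fold 4.55, −log10 q 2.94, 7 fragments). Nrf2 KO control had a peak at the same place with a fold of 6.00 and −log10 q of 5.22, 36 bp from it between summits. Its strongest peak lay 590 bp upstream (chr19:29811220-29811537, fold 6.71, −log10 q 6.31, 9 fragments). The remaining peak, in intron 6, had 6 fragments and a fold of 4.69.

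MDM2 encodes the ubiquitin ligase that degrades p53 and is itself a p53 target. It is on the plus strand at chr12:68808177-68845544, and had 0, 2, 2 and 0 peaks. Both lists placed their strongest peak at the upstream promoter, with summits 12 bp apart, the closest pair at any of the 9 genes. The WT As3+ summit lay 129 bp upstream of the start (chr12:68807863-68808186, fold 6.50, −log10 q 8.66, 18 fragments), and the Nrf2 KO control summit lay 141 bp upstream (chr12:68807874-68808560, fold 6.74, −log10 q 7.82, 15 fragments). The second peaks were far apart, in intron 8 in WT As3+ and in the last exon in Nrf2 KO control, with folds of 4.66 and 4.90. The MDM2 window, the longest of the 9, holds 17 KLF words, and none of them is in a peak. Per 10 kb this is 3.44 words, fewer than the 4.81 of the CDKN1C window. The promoter summit has related words instead, CCCCACCC in capitals in 150 bases of the plus strand at chr12:68807973-68808122.
MDM2 promoter: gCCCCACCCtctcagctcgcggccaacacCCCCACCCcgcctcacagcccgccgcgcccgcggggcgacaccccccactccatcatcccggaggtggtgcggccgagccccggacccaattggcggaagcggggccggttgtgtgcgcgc

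GADD45A encodes a stress-induced protein of DNA repair and G2/M arrest that p53 activates. On the plus strand at chr1:67685201-67688334, it had 0, 1, 1 and 0 peaks. Each list had 1 wide peak over the start of the gene, 1789 bp in WT As3+ (chr1:67684861-67686649, fold 6.32, −log10 q 8.03, 17 fragments) and 1783 bp in Nrf2 KO control (chr1:67684940-67686722, fold 7.16, −log10 q 8.72, 16 fragments). Only 0.167% and 0.148% of the peaks of these lists were as wide. The peaks shared 1710 bp, while their summits lay 587 bp apart, 680 bp downstream of the start in intron 1 in WT As3+ and 93 bp downstream in the 5′ UTR in Nrf2 KO control. The only KLF word of the window is inside both peaks, 64 bp from the WT As3+ summit, at chr1:67685916-67685975 on the plus strand.
GADD45A at +744: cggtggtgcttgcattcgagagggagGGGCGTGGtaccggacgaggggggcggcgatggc

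Across the 9 genes, 11 of the 19 WT As3+ peaks overlapped a Nrf2 KO control peak (57.9%, 95% Clopper-Pearson interval 33.5 to 79.7%, counting error only), and 12 of the 32 Nrf2 KO control peaks overlapped a WT As3+ peak (37.5%, 21.1 to 56.3%). Each of the 9 genes had such a site, CDKN1C only through an overlap of 20 bp, and the share of all protein-coding genes with one was not computed. In the whole lists the shares were 55.6% and 21.7%. Under a stricter reading, with summits within 200 bp, 7 sites were shared, and CDKN1C, CDKN2B and GADD45A had none. The share of the whole lists under this rule was not computed, so these counts cannot be set against other genes. Within 1 kb of any annotated start lay 12 of 19 WT As3+ peaks (63.2%, 38.4 to 83.7%) and 20 of 32 Nrf2 KO control peaks (62.5%, 43.7 to 78.9%), against 65.6% and 46.2% of the peaks in the windows of all protein-coding genes.

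**Figure D4:**
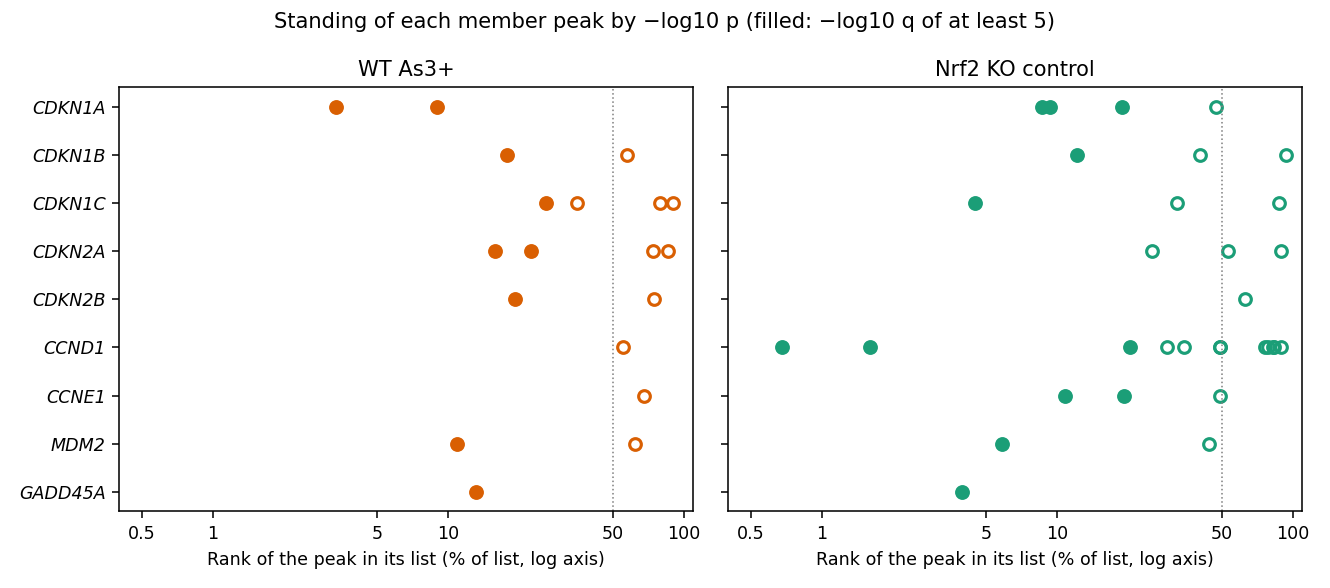
Rank of each peak of the 9 genes in its own list by −log10 p, in percent of the list (x axis, log scale; small values are the strongest peaks), for WT As3+ and Nrf2 KO control; filled points have −log10 q of at least 5 and the dotted line is the middle of the list. CCND1 holds the lowest percentage in Nrf2 KO control (0.679%) and lies past the middle in WT As3+ (55.2%), and CDKN1A holds the lowest in WT As3+ (3.35%).

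The other 2 lists could show only peaks above a certain strength. If the local background of a site scales with the lowest background of each library, a peak at the strongest WT As3+ sites would have needed a fold of 2.47 to 3.79 to enter the WT control list and of 2.71 to 4.09 to enter the Nrf2 KO As3+ list. The nearest WT control peak to a start was 101 kb away at CDKN1A and 6257 kb away at CCNE1, the extremes among the 9. In Nrf2 KO As3+ the nearest were 2727 kb (GADD45A) to 110380 kb (CDKN2A) away. A weaker immunoprecipitation and fewer bound sites cannot be told apart with 1 library per condition.

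Of the 200 bp windows around summits at the 9 genes, 3 of 19 in WT As3+ held the KLF word (15.8%, against 10.3% of all summits in the list) and 4 of 32 in Nrf2 KO control (12.5%, against 9.27%). In windows of 100 bp the shares at the 9 genes were 0% in WT As3+ and 12.5% in Nrf2 KO control. With CCCCACCC and CCCCGCCC also allowed, the last of which is part of the GC box, the counts were 10 of 19 (52.6%, against 31.2%) and 10 of 32 (31.2%, against 24.4%). The GC content of these windows had a median of 66.0% and 65.5%, against 64.5% and 61.5% in the lists. AP-1 words (TGACTCA or TGAGTCA) were in 1 window of WT As3+ (5.26%, against 4.33% of the list) and 2 of Nrf2 KO control (6.25%, against 2.54%), all in CDKN1A intron 1. Most KLF words had no peak, since 59 occur in the 9 windows and 8 lie in a peak of either list. The share of window sequence that peaks cover was not computed, so this count does not tell whether words and peaks meet more or less often than by coverage. In RefSeq promoters (GRCh38.p14, 250 bases before to 50 after the start), 6 of the 9 genes matched, with 10 entries, and none held the KLF word, which is in 8.05% of 35116 promoters. The wider set of words was in 6 of the 10 entries, at CCNE1, CDKN1A, CDKN2A, CDKN2B and MDM2, and in 34.5% of all promoters. A p53 site was found in 2 of the entries, both of MDM2, and in 0.285% of all promoters.

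Sites that fit the p53 consensus, with the C and G of both cores intact and at most 2 other mismatches in 20 bases, occur 7 times in the 9 windows. None of them is in a KLF4 peak of any list, but peaks cover only part of the windows and the covered share was not computed. Such sites were in 0.144% of all WT As3+ summit windows and 0.155% of those of Nrf2 KO control. The 3 shown are those nearest to the starts of CDKN1A, MDM2 and GADD45A, each printed on the plus strand with the cores in capitals, at chr6:36676449-36676468, chr12:68808923-68808942 and chr1:67686775-67686794.
CDKN1A at −2256: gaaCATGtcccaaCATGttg
MDM2 at +755: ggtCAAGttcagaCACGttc
GADD45A at +1583: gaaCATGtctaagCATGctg
The nearest WT As3+ summits lay 2171, 884 and 903 bp from these sites, and the nearest Nrf2 KO control summits 2525, 896 and 1490 bp.

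Another 62 genes of the cell cycle and p53 pathways were counted in the same way. A peak was found at 50 of them in WT As3+, 56 in Nrf2 KO control, 2 in WT control and 0 in Nrf2 KO As3+. Over all protein-coding genes the shares were 66.5%, 81.0%, 2.51% and 0.439% in the same order. The 2 of 62 in WT control thus stand near the share of all genes. The 2 genes with a WT control peak were BBC3, which encodes the apoptosis inducer PUMA, and DDB2, a DNA damage sensor. Both are from the list of other p53 targets, which makes up 23 of the 62 genes. The BBC3 peak lay in intron 2 (fold 4.75, −log10 q 6.38, 24 fragments), as did that of DDB2 (fold 4.28, −log10 q 5.35, 24 fragments). BBC3 also had the strongest WT As3+ peak of the 62 genes, with a fold of 10.5 and −log10 q of 19.4.

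The counts below stand beside shares of all protein-coding genes of 66.5% in WT As3+ and 81.0% in Nrf2 KO control. Of the cyclins and CDKs of G1/S, 8 of 8 had a peak in both lists, led in WT As3+ by CDK2 (fold 7.18, −log10 q 10.5). Among RB and E2F genes 10 of 11 had one in each list, led in WT As3+ by E2F2 (fold 8.27, −log10 q 12.2), with E2F1 lacking a WT As3+ peak and SKP2 a Nrf2 KO control peak. Other p53 targets stood at 22 of 23 in each list, without XPC in WT As3+ and AEN in Nrf2 KO control. The remaining CDK inhibitors had 2 of 3 in each, led in WT As3+ by CDKN2D (fold 7.02, −log10 q 9.87), and CDKN3 had no peak. G2/M genes numbered 6 of 9 in WT As3+, led by WEE1 (fold 7.29, −log10 q 8.75), and 9 of 9 in Nrf2 KO control, where CCNB1, CCNB2 and AURKA had 1 peak each.

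The list of p63, p73 and p53 regulators had the lowest share in WT As3+, 2 of 8 genes, against 5 of 8 in Nrf2 KO control and 66.5% and 81.0% of all protein-coding genes. The 2 were TP73, led by a peak of fold 6.11 and −log10 q 5.82, and TP63 (fold 4.08, −log10 q 2.35). MDM4 and CHEK2 had 0 peaks in WT As3+ and 5 in Nrf2 KO control, PPM1D 0 and 4 and CHEK1 0 and 1, while ATM and USP7 had none in either list. These genes were named after their values were seen, and 8 genes with 1 library per condition give no test of the list.

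**Figure D5:**
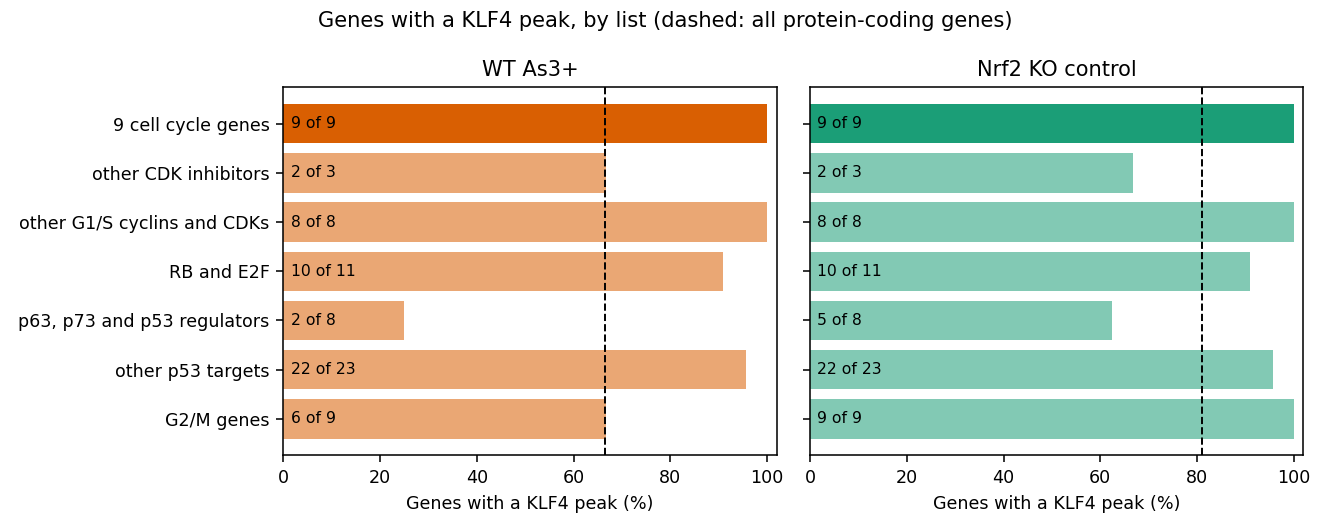
Share of genes with a KLF4 peak (x axis, %) in WT As3+ and Nrf2 KO control, for the 9 genes and for 6 lists of other cell cycle and p53 pathway genes; counts are written in the bars and the dashed line is the share of all protein-coding genes, 66.5% and 81.0%. All 9 genes have a peak in both libraries, and p63, p73 and p53 regulators are at 2 of 8 in WT As3+.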

How the data were processed

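KLF4 ChIP-seq peak lists of 4 libraries were analysed, 1 per condition, assigned by the sample labels. The histone mark and input libraries of the series were not used. The authors aligned 75-nt reads with BWA to GRCh38/hg38 (bcl2fastq 2.17 in their processing notes). The peak caller is not given in the sources used here, and 1 input library is labelled for KLF4, from WT control cells. The deposited lists give a fold ratio over the local background for each summit, with −log10 values of p and q, and a deposited score of 10 times the −log10 q, which was not used. Duplicate intervals and peaks outside chromosomes 1 to 22, X and Y were dropped.

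Fragments (n) and background (λ) were solved from fold = (n + 1)/(λ + 1) and p as a Poisson upper tail, with a largest misfit in −log10 p of 4.05e-04. Genes and starts came from GENCODE 44, and places within a gene follow its canonical transcript. Overlap meant at least 1 bp in common. The 9 genes and the lists of 62 were chosen with earlier results of these data known, and 1 further gene of the lists and 1 sequence are not reported here. Named were the 9 genes, listed genes with a WT control or Nrf2 KO As3+ peak, the gene with the largest WT As3+ −log10 p of each list, and the 3 genes most like each of CDKN1C and CDKN2A, which tie for most WT As3+ peaks. Other listed genes were named after their values were seen. Alternatives were peak threshold, list length, window, overlap and motif settings. Fragment recovery, gene windows and word search were tried on simulated or planted cases, with fold and p simulated from the same formula that was solved. The overlap code itself was not tested in this way. Computation used Python 3.11.15 with pandas 2.3.3, scipy 1.17.1 and pysam 0.24.0, figures were drawn with matplotlib 3.10.9, and samtools 1.23.1 indexed hg38.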

Additional observations from a re-analysis of the deposited data

Results flagged for a closer look

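Peak numbers moved in opposite directions with As3+ in WT and Nrf2 KO cells at each of the 9 genes, rising from 0 in WT and falling to 0 in Nrf2 KO. The change in WT minus that in Nrf2 KO was 13 peaks at CCND1, 7 at CDKN1C and CDKN2A, 6 at CDKN1A, 5 at CDKN1B, 4 at CCNE1 and MDM2, 3 at CDKN2B and 2 at GADD45A. With 1 library per group the difference was not tested. The lists as a whole moved in the same way, from 751 to 29870 peaks in WT and from 76545 to 130 in Nrf2 KO.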

How the results depend on the processing

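There is 1 library per condition, so no library could be left out. No paired analysis was possible because the conditions have no replicates. Of 130 values recomputed for 26 results, 96 stayed within 1.5 times the count, or within the interval of the share, and 34 did not. The 96 include the counts of 0 at the 9 genes in WT control and Nrf2 KO As3+, and of peaks shared with these lists. Those could not move, so the 96 overstate how stable the results are. With −log10 q of at least 5, the 9 windows held 9 peaks in WT As3+ and 12 in Nrf2 KO control. Of the 62 listed genes 31 had such a WT As3+ peak, against 38.2% of all protein-coding genes. With the 130 strongest peaks of each list, 0 of the 9 genes had a peak and the windows held 0 peaks in WT As3+ and in Nrf2 KO control. Listed genes with a peak then numbered 0 in WT control, 0 in WT As3+ and 1 in Nrf2 KO control. The shares of all protein-coding genes were 0.449%, 0.494% and 0.679% in the same order. Within 1 kb of a start of the gene there were 11 peaks in WT As3+ and 19 in Nrf2 KO control. The Nrf2 KO control list shortened to the length of WT As3+, added after seeing the data, left 16 peaks. Shared sites came to 7 in either direction with at least 50% of both peaks in common or with summits within 200 bp, and to 5 of 9 WT As3+ and 6 of 12 Nrf2 KO control peaks with −log10 q of at least 5. Shares of the whole lists under these settings were not computed. The share of peaks near a start moved to 84.2% and 87.5% within 2 kb, and to 88.9% in WT As3+ with the stricter threshold. KLF words fell to 0% of WT As3+ windows of 100 bp.

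The counts of 0 at the 9 genes in WT control and Nrf2 KO As3+ were 0 under every alternative run, but this is no test of them. Stricter thresholds, shorter lists and narrower windows only remove peaks. Counting peak intervals that overlap the window raised the Nrf2 KO control count from 32 to 33 and left these 2 lists at 0. Their nearest peaks to a start of the 9 genes were 101 kb away in WT control and 2727 kb away in Nrf2 KO As3+. Depth limits the weak peaks of WT As3+ and Nrf2 KO control, where those of 5 to 8 fragments rest on few reads. Peaks of WT control and Nrf2 KO As3+ had at least 10 fragments, and in any list a site below the threshold is not listed.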

Other observations

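CDKN1C and CDKN2A had the most WT As3+ peaks of the 9 genes, 4 each, and shared their counts of 0, 4, 3 and 0 peaks with 85 other protein-coding genes outside the lists. The genes closest to CDKN2A by the largest −log10 q of each library were PPM1N, BCL2 and HECW1, with sums of differences of 0.754, 0.812 and 1.16. Those closest to CDKN1C were DNAJA3, MISP3 and TARS3, with 0.788, 1.02 and 1.22. The likeness was measured over 4 libraries, but WT control and Nrf2 KO As3+ have no peak at any of these genes. The sums therefore rest on WT As3+ and Nrf2 KO control alone.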
